A study of Mus musculus with 12 samples.

Results

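The genes described here are a part of the MHC class I presentation pathway of the mouse. They are the heavy chains H2-K1 and H2-D1, the light chain B2m, the peptide transporter subunits Tap1 and Tap2, and the loading factor Tapbp. The others are the immunoproteasome subunits Psmb8, Psmb9, and Psmb10, and the transactivator Nlrc5. These genes were selected by symbol, as 10 of the 35303 symbols in the counts table. All 10 were among the 17676 symbols that held at least 2 counts over the 12 libraries and were tested, so none was lost to the filter on low counts.

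MHC class I molecules show peptides from the cell's own proteins to CD8 T cells, and nearly every nucleated cell carries them. The proteasome cuts proteins into peptides, the TAP transporter moves the peptides into the endoplasmic reticulum, and tapasin, the product of Tapbp, holds an empty heavy chain with β2-microglobulin next to the transporter until a peptide binds. Interferons induce most genes of the pathway, including 3 catalytic subunits that replace their constitutive counterparts in the immunoproteasome, and NLRC5 acts at class I promoters together with the RFX, CREB/ATF, and NF-Y factors. In myeloid cells the same molecules are also ligands of inhibitory receptors such as PIR-B.

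Bulk RNA-seq of 12 libraries compared 3 groups of MDSCs with 4 biological replicates each. MDSCs are immunosuppressive myeloid cells, and these were grown from bone marrow of WT female C57BL/6 mice of 6 to 10 weeks with IL-6 and GM-CSF, harvested on day 3 as nonadherent cells, and purified as CD11b+Gr1+ cells. The groups were unmodified cells (MDSC), cells that carried blank PLGA NPs clicked through DBCO to azido sugars on their surface (MDSC-NP-Blk), and cells that carried the same NPs loaded with the mTOR inhibitor rapamycin (CITED). All 3 groups were then kept for 24 hours with IL-6 at 40 ng/ml, and the methods do not state whether the unmodified cells had received the azido sugar. The labels name the CNS as the tissue, but according to the methods the cells were grown from bone marrow. The study calls the replicates biologically independent but does not state whether they came from separate mice or cultures, so the p-values measure the spread between these libraries.

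The libraries held 20604809 to 37855478 counts, and 3 counts, the smallest number taken as detected, were at most 1.46e-05% of a library. Of the 12 MDSC markers (Itgam, Ly6g, S100a8, and others) none was at 0 in any group, and their summed level was 25734 to 29275 CPM in the MDSC libraries, 35456 to 37565 CPM in those of MDSC-NP-Blk, and 27809 to 31594 CPM in those of CITED. Most of that sum was S100a8 and S100a9 (10693 and 11472 CPM in MDSC). In CITED against MDSC 6 of the 12 markers rose and 3 fell at an adjusted p below 0.05 (edgeR). Of all symbols tested, 22.2% were called higher and 22.2% lower there. Csf3r was at mean normalized counts of 4341 in MDSC and 12631 in CITED, and Nos2 at 3610 and 414. The summed level of 8 T cell markers was at most 3.51 CPM in a library and that of 7 NK cell markers, of which 3 or 4 were at 0 in each group, at most 0.695 CPM. RNA was taken from whole cultures, so fewer cells of a type and less RNA per cell cannot be told apart in any value below.

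The promoters of the 2 heavy chains and of B2m are shown first, because each heavy chain pairs with the product of B2m. A motif pair also stands at the same spacing in these 3 promoters. The sequences are the 160 bases before the RefSeq start site, 5′ to 3′ on the strand of the gene. They were placed on GRCm39 by exact match at chr17:34219322-34219481 (minus strand) for H2-K1, at chr17:35481910-35482069 (plus strand) for H2-D1, and at chr2:121978008-121978167 (plus strand) for B2m. Capitals mark matches, on either strand, to TGACG (the core of the X2 box, the site type of CREB/ATF), to CCAAT (the Y box, the site type of NF-Y, printed ATTGG where it lies on the opposite strand), and to GAAANNGAA or GAANNGAAA (cores of IRF sites).
H2-K1: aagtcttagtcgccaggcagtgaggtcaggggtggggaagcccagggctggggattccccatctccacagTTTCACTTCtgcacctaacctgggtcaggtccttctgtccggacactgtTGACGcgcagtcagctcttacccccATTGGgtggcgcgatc
H2-D1: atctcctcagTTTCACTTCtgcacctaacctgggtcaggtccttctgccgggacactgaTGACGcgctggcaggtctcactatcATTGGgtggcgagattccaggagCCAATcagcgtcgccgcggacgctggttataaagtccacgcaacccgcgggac
B2m: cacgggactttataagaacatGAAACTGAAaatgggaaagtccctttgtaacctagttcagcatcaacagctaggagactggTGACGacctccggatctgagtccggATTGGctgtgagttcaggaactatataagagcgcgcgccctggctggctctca

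In all 3 promoters TGACG was followed on the gene strand by ATTGG, with 25 bases from the first base of one to the first base of the other. The pair started 41 bases before the start site of H2-K1 used above, 101 bases before that of H2-D1, and 78 bases before that of B2m. RefSeq also holds another start site of H2-K1, and the pair started 55 bases before it. The 25-base spacing was chosen after the matches were seen. Read on either strand, it occurred in 31 of the 32851 RefSeq promoter windows of 300 bases (0.0944%). These windows came from 27 genes, which include H2-K1, H2-D1, B2m, and the class Ib gene H2-M3. The IRF core GAANNGAAA lay upstream of the pair in H2-K1 and H2-D1, and this spelling, also added after the sequences were seen, was found in 7.52% of all windows.

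The RefSeq table, whose build is GRCm38.p6, held windows for 8 of the 10 genes; those of Nlrc5 and Tap2 were not analysed here. CCAAT was matched in 6 of the 8 genes against 37.4% of all windows, and TGACG in 5 of 8 against 20.8%. Both were present in the windows of H2-K1, H2-D1, B2m, Tap1, and Psmb9, whereas 7.73% of all windows held both. GAAANNGAA was matched in B2m alone among the 8 (8.56% of windows), and TTCNNNGAA, the core of STAT sites, in Psmb8 alone (8.3% of windows). Such matches describe letters and not binding.

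Tap1 and Psmb9 face away from each other, with RefSeq start sites 226 bases apart on chromosome 17, so the TGACG and CCAAT matches of the 2 windows are the same bases. The 160 bases before the start of Tap1, at chr17:34406370-34406529 (plus strand), show the shared TGACG in capitals.
Tap1: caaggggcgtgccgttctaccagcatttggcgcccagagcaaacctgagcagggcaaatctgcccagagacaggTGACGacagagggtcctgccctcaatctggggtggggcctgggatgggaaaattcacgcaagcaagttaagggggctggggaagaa

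**Figure D1:**
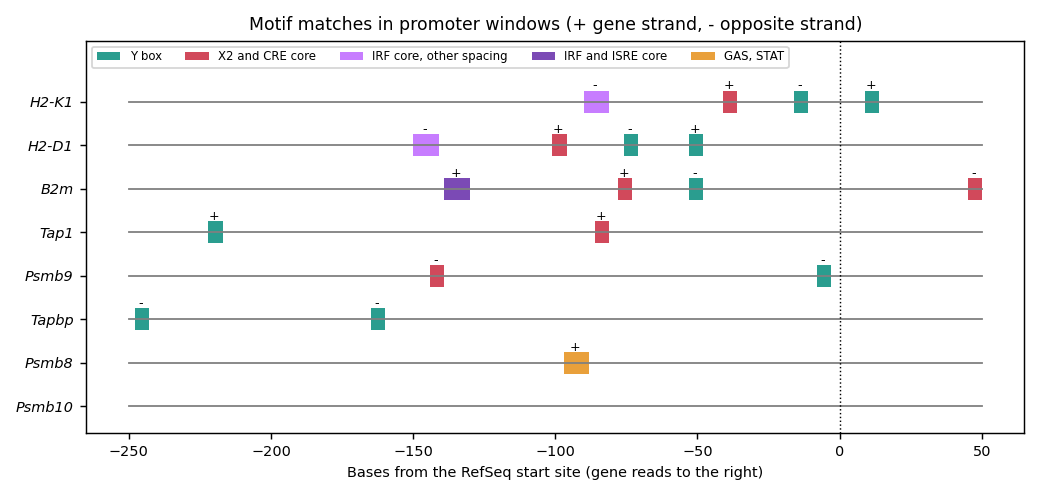
Motif matches in the promoter windows of 8 genes, by distance in bases from the RefSeq start site, with the strand of each match above it. The red and green boxes stand in the same order and 25 bases apart in H2-K1, H2-D1, and B2m, and the window of Psmb10 holds no match.

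Transcripts of 9 of the 10 genes were higher in both NP-conjugated groups than in unmodified MDSCs, and 6 of these 9 were higher again in CITED than in MDSC-NP-Blk. In CITED against MDSC, 9 of the 10 genes rose at an adjusted p below 0.05 (edgeR's quasi-likelihood test with Benjamini-Hochberg adjustment over all 17676 symbols), none fell, and Nlrc5 did not pass. Of all symbols tested, 22.2% were called higher and 22.2% lower in that comparison. In MDSC-NP-Blk against MDSC, the same 9 genes rose and Nlrc5 fell, where 19.9% of all symbols were called higher and 18.6% lower. In CITED against MDSC-NP-Blk, 7 rose, none fell, and B2m, Tap2, and Psmb9 did not pass, where 10.5% of all symbols were called higher and 11.4% lower.

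Few of the changes were as large as 2-fold. With a log2 fold change of at least 1 as a further threshold, H2-K1, H2-D1, and Tapbp were called higher in CITED against MDSC, where 3.28% of all symbols were called higher and 6.7% lower. Tapbp fell short of the fold threshold without MDSC replicate 4 (log2 fold change 0.998) or CITED replicate 3 (0.991), which left 2 genes. H2-D1 alone was called in MDSC-NP-Blk against MDSC (1.88% of all symbols higher, 2.86% lower), and 0 of the 10 in CITED against MDSC-NP-Blk by edgeR or DESeq2 (0.651% higher, 2% lower by edgeR), where 7 passed the adjusted p alone. The median log2 fold change of the 10 genes was 0.79, 0.55, and 0.23 in the 3 comparisons, in that order, against -0.05, -0.03, and 0.00 over all symbols tested. Because the comparisons share libraries, their values are given side by side and were not compared with each other.

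These folds rest on TMM factors, which were 1.12 to 1.15 in the MDSC libraries and 0.921 to 0.947 in the other 8. With library totals alone, the median of all genes above a mean normalized count of 50 moved by -0.27 in CITED against MDSC and by -0.26 in MDSC-NP-Blk against MDSC. On that scale 9 of the 10 genes still passed in CITED against MDSC, with H2-D1 as the 1 gene past both thresholds, and the log2 fold change of Psmb8 in MDSC-NP-Blk against MDSC went from 0.26 to 0.00 (adjusted p = 0.983, edgeR). B2m, Psmb8, and Psmb9 in CITED against MDSC went from 0.54, 0.46, and 0.53 to 0.27, 0.18, and 0.25, and the other values against MDSC fell by like amounts. A correction for transcript length lowered B2m and the immunosubunits as well: against MDSC, in CITED, B2m stood at 0.31, Psmb8 at 0.26, and Psmb9 at 0.30, and in MDSC-NP-Blk, B2m stood at 0.24, Psmb9 at 0.26, and Psmb10 at 0.35, all of which still passed, whereas Psmb8 in MDSC-NP-Blk stood at 0.09 and did not (adjusted p = 0.131, edgeR). Directions are therefore given relative to the bulk of the genes.

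**Figure D2:**
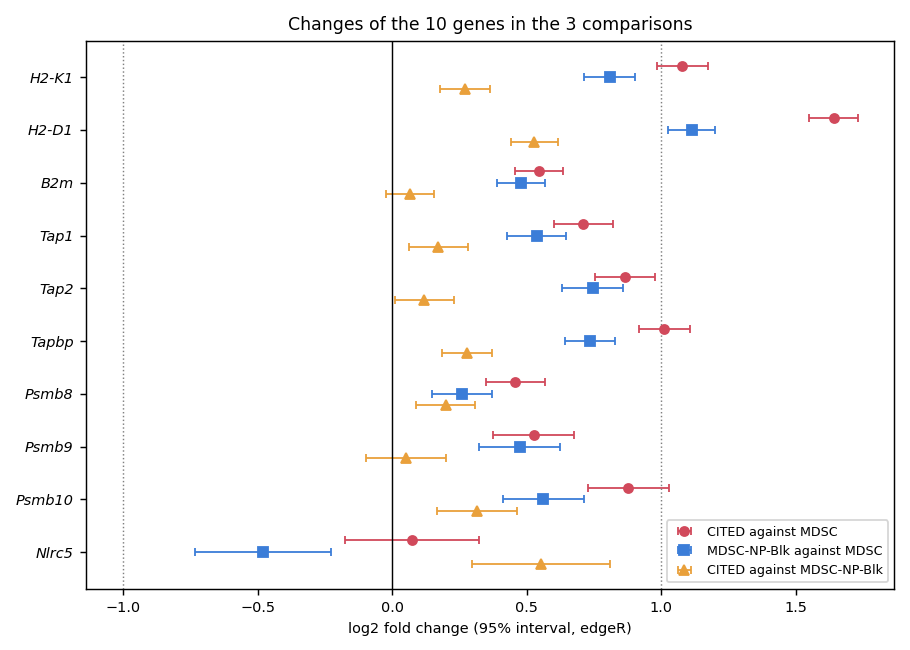
Log2 fold change of each of the 10 genes in the 3 comparisons, with its 95% interval from edgeR; dotted lines mark a log2 fold change of 1 in either direction. Circles and squares lie to the right of 0 for 9 genes, with the square of Nlrc5 at -0.48 as the exception and its circle at 0.07.

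H2-K1 (ENSMUSG00000061232.18, chr17:34214987-34219321 on the minus strand of GRCm39) and H2-D1 (ENSMUSG00000073411.14, chr17:35481691-35486475 on the plus strand) encode the classical class I heavy chains of these mice, which hold the peptide. In MDSC, the normalized counts of H2-D1 were 18994, 21197, 19984, and 19611, and in MDSC-NP-Blk they were 45428, 42132, 40800, and 44109. In CITED they were 63143, 61695, 61973, and 61834, so the 3 groups did not overlap. H2-D1 was 3.12-fold higher in CITED than in MDSC (log2 fold change 1.64, SE 0.0440, adjusted p = 3.16e-25), 2.16-fold higher in MDSC-NP-Blk than in MDSC (1.11, SE 0.0434, adjusted p = 4e-20), and 1.44-fold higher in CITED than in MDSC-NP-Blk (0.53, SE 0.0430, adjusted p = 9.34e-12). It had the largest log2 fold change of the 10 genes in the 2 comparisons with MDSC.

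H2-K1 was also higher in every conjugated library than in any unmodified one. Its normalized counts were 11634, 11629, 11353, and 11487 in MDSC, 21626, 19659, 18434, and 20992 in MDSC-NP-Blk, and 24458, 23884, 25199, and 23821 in CITED. The level was 2.11-fold higher in CITED than in MDSC (log2 fold change 1.08, SE 0.0470, adjusted p = 1.05e-19) and 1.75-fold higher in MDSC-NP-Blk (0.81, adjusted p = 6.44e-16). CITED exceeded MDSC-NP-Blk by 1.21-fold (0.27, SE 0.0465, adjusted p = 2.67e-05), and these groups did not overlap either.

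The counts of H2-D1 per count of H2-K1 were 1.63 to 1.82 in the MDSC libraries, 2.10 to 2.21 in those of MDSC-NP-Blk, and 2.46 to 2.60 in those of CITED. The ratio, which needs no scaling of libraries, thus stepped up from group to group without overlap. The transcripts of the 2 genes share sequence, however: 28.7% of the 31-base words of H2-D1 and 26.6% of those of H2-K1 also occur in other genes, 16.8% and 15.3% in each other, so reads could be split between them. Summed over the 21 class I heavy chain symbols of the K, D, Q, T, and M regions, the level rose by 1.39 on the log2 scale in CITED against MDSC, by 0.95 in MDSC-NP-Blk against MDSC, and by 0.44 in CITED against MDSC-NP-Blk. Within that sum, H2-K1 went from 29.9 to 31.8% in MDSC to 24.4 to 25.5% in CITED, and H2-D1 from 52.0 to 54.6% to 62.8 to 63.8%.

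B2m (ENSMUSG00000060802.10, chr2:121977957-121983594) encodes the light chain that every class I molecule needs, and it changed less than either heavy chain. Its normalized counts were 20237, 20842, 19426, and 18631 in MDSC, 28719, 26802, 27215, and 27584 in MDSC-NP-Blk, and 29611, 28388, 28262, and 29179 in CITED. Both conjugated groups lay above all MDSC libraries and overlapped each other. B2m was 1.46-fold higher in CITED than in MDSC (log2 fold change 0.54, SE 0.0435, adjusted p = 8.41e-13) and 1.39-fold higher in MDSC-NP-Blk than in MDSC (0.48, SE 0.0435, adjusted p = 3.63e-11). Between CITED and MDSC-NP-Blk the log2 difference was 0.07 with a 95% interval of -0.02 to 0.15 (adjusted p = 0.323, edgeR).

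The balance of heavy and light chain transcripts therefore differed by group. H2-K1 and H2-D1 together held 1.51 to 1.67 counts per count of B2m in the MDSC libraries, 2.18 to 2.36 in those of MDSC-NP-Blk, and 2.94 to 3.08 in those of CITED, with no overlap. Per kilobase of canonical transcript, B2m was the most abundant of the 10 in MDSC, at a normalized count of 18217 ± 887 (SD, n = 4) against 9422 ± 439 for H2-D1 and 7119 ± 82.7 for H2-K1. In CITED, H2-D1 reached 29363 ± 314 per kilobase and stood above B2m at 26574 ± 593, and the ranges of the 2 genes did not overlap.

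**Figure D3:**
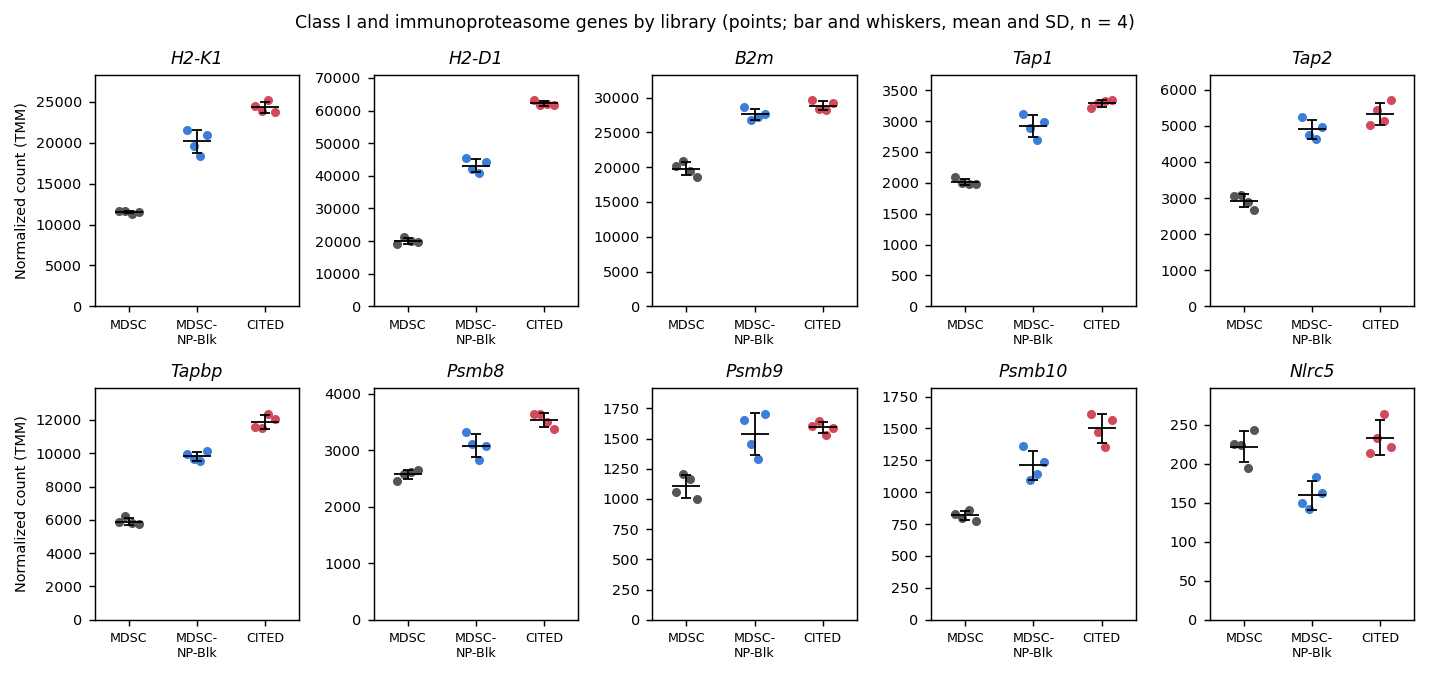
TMM-normalized counts of the 10 genes in each library (points), with the mean and SD of the 4 libraries of a group. H2-D1 and H2-K1 step up from MDSC to MDSC-NP-Blk to CITED without overlap. B2m, Tap2, Psmb9, and Psmb10 overlap between the conjugated groups, and Nlrc5 is lowest in MDSC-NP-Blk.

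Tap1 and Tap2 (chr17:34405996-34416199 and chr17:34422501-34435829, both on the plus strand) encode the subunits of the peptide transporter, and Tapbp (chr17:34134873-34148267) encodes tapasin, which couples it to the heavy chain. Tapbp had the largest change of the 3 in CITED against MDSC. Its normalized counts were 5842, 6205, 5806, and 5726 in MDSC, 9955, 9675, 9505, and 10106 in MDSC-NP-Blk, and 11601, 11514, 12381, and 12045 in CITED. All 3 groups were apart. Tapbp was 2.02-fold higher in CITED than in MDSC (log2 fold change 1.01, SE 0.0463, adjusted p = 3.74e-19), 1.66-fold higher in MDSC-NP-Blk than in MDSC (0.73, SE 0.0461, adjusted p = 4.47e-15), and 1.21-fold higher in CITED than in MDSC-NP-Blk (0.28, SE 0.0458, adjusted p = 1.49e-05). Its transcripts share 17.6% of their 31-base words with those of Zbtb22, whose own log2 fold changes were 0.59, 0.42, and 0.16.

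Each transporter subunit was higher in both conjugated groups than in MDSC. Tap2 was 1.82-fold higher in CITED (log2 fold change 0.86, SE 0.0552, adjusted p = 2.72e-15) and 1.68-fold higher in MDSC-NP-Blk (0.74, SE 0.0552, adjusted p = 2.79e-13) than in MDSC, where its normalized counts were 2680 to 3076. Tap1 was 1.63-fold higher in CITED (0.71, SE 0.0539, adjusted p = 2.36e-13) and 1.45-fold higher in MDSC-NP-Blk (0.54, SE 0.0538, adjusted p = 3.43e-10) than in MDSC, where its normalized counts were 1977 to 2086.

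The added difference between the 2 conjugated groups was small for the transporter. Tap1 was at 2685 to 3115 in the MDSC-NP-Blk libraries and at 3204 to 3336 in those of CITED, which differed by 0.17 on the log2 scale (adjusted p = 0.0169, edgeR) without overlap. That call was lost without MDSC-NP-Blk replicate 3 (0.13, adjusted p = 0.0796) or without CITED replicate 4 (0.16, adjusted p = 0.051). Tap2 was at 4645 to 5245 and 5021 to 5707, which overlapped, and its difference of 0.12 (95% interval 0.01 to 0.23) did not pass with an adjusted p of 0.124, although it did without MDSC-NP-Blk replicate 1 (0.15, adjusted p = 0.0403) or after a correction for transcript length (0.14, adjusted p = 0.0423).

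Psmb8, Psmb9, and Psmb10 encode the catalytic subunits of the immunoproteasome, and Psmb5, Psmb6, and Psmb7 the constitutive subunits whose places they take. Psmb10 (chr8:106662362-106665077, minus strand), which takes the place of Psmb7, changed most. Its normalized counts were 830, 800, 864, and 776 in MDSC, 1361, 1099, 1141, and 1237 in MDSC-NP-Blk, and 1617, 1474, 1353, and 1563 in CITED. Psmb10 was 1.84-fold higher in CITED (log2 fold change 0.88, SE 0.0741, adjusted p = 3.32e-12) and 1.48-fold higher in MDSC-NP-Blk (0.56, SE 0.0742, adjusted p = 1.14e-07) than in MDSC. CITED was 1.24-fold above MDSC-NP-Blk (0.31, adjusted p = 0.0013), although the lowest CITED library lay below the highest of MDSC-NP-Blk.

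Psmb8 (chr17:34416690-34420428) and Psmb9 (chr17:34400960-34406738, minus strand) lie beside the transporter genes in the class II region. The MDSC libraries held 2465, 2577, 2616, and 2655 normalized counts of Psmb8, those of MDSC-NP-Blk 3332, 3107, 2835, and 3069, and those of CITED 3636, 3651, 3503, and 3376, with no overlap between the groups. These are log2 fold changes of 0.46 in CITED against MDSC (SE 0.0543, adjusted p = 7.76e-09), 0.26 in MDSC-NP-Blk against MDSC (SE 0.0542, adjusted p = 0.00018), and 0.20 in CITED against MDSC-NP-Blk (SE 0.0541, adjusted p = 0.00595).

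Psmb9 rose in both conjugated groups, which overlapped each other. Its normalized counts were 1054, 1207, 1164, and 1000 in MDSC, 1657, 1453, 1334, and 1707 in MDSC-NP-Blk, and 1601, 1650, 1532, and 1588 in CITED. It rose by 0.53 on the log2 scale in CITED (SE 0.0738, adjusted p = 2.37e-07) and by 0.47 in MDSC-NP-Blk (SE 0.0737, adjusted p = 2.25e-06) against MDSC, and the log2 difference between the 2 was 0.05 with a 95% interval of -0.10 to 0.20. The annotated spans of Psmb9 and Tap1 overlap on opposite strands, and whether the counting used strand is not stated, so reads there could belong to either gene.

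The constitutive subunits followed another pattern. Psmb5 and Psmb6 rose in CITED against MDSC, by 0.48 (adjusted p = 4.18e-09) and 0.38 (adjusted p = 8.09e-06) on the log2 scale, and in CITED against MDSC-NP-Blk, by 0.37 and 0.39. In MDSC-NP-Blk against MDSC their log2 fold changes were 0.11 (95% interval -0.01 to 0.22) and -0.01 (-0.14 to 0.12), and neither passed. Psmb7 passed in no comparison, with log2 fold changes of 0.00, -0.07, and 0.08. Of the 31-base words of Psmb5, 52.1% also occur in other genes such as Gm3375, so its counts are uncertain.

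Ratios of counts within a library show the balance of the paired subunits without any scaling, and they were compared by two-sided exact permutation tests of the log2 ratio, 4 libraries against 4, with Benjamini-Hochberg adjustment over the 9 tests. The smallest p that such a test can give is 0.0286. Psmb10 held 0.376 to 0.421 counts per count of Psmb7 in the MDSC libraries, 0.593 to 0.655 in those of MDSC-NP-Blk, and 0.698 to 0.812 in those of CITED. All 3 groups were apart, and the ratio was 1.83-fold higher in CITED and 1.56-fold higher in MDSC-NP-Blk than in MDSC, and 1.18-fold higher in CITED than in MDSC-NP-Blk (adjusted p = 0.0429 in each, exact permutation test).

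For the other 2 pairs the ratio was highest in MDSC-NP-Blk. Psmb9 held 0.590 to 0.742 counts per count of Psmb6 in the MDSC libraries, 0.861 to 0.978 in those of MDSC-NP-Blk, and 0.653 to 0.796 in those of CITED. MDSC-NP-Blk was 0.48 above MDSC on the log2 scale, and CITED was 0.797 times MDSC-NP-Blk (adjusted p = 0.0429 in both, exact permutation test), whereas CITED and MDSC overlapped (difference of 0.15 on the log2 scale, adjusted p = 0.193, exact permutation test). Psmb8 held 0.995 to 1.07 counts per count of Psmb5 in the MDSC libraries, 1.06 to 1.20 in those of MDSC-NP-Blk, and 0.970 to 1.06 in those of CITED. Here CITED was 0.887 times MDSC-NP-Blk (adjusted p = 0.0429), the difference of 0.15 between MDSC-NP-Blk and MDSC had an adjusted p of 0.0735, and CITED and MDSC differed by -0.02 (adjusted p = 0.571, exact permutation tests).

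**Figure D4:**
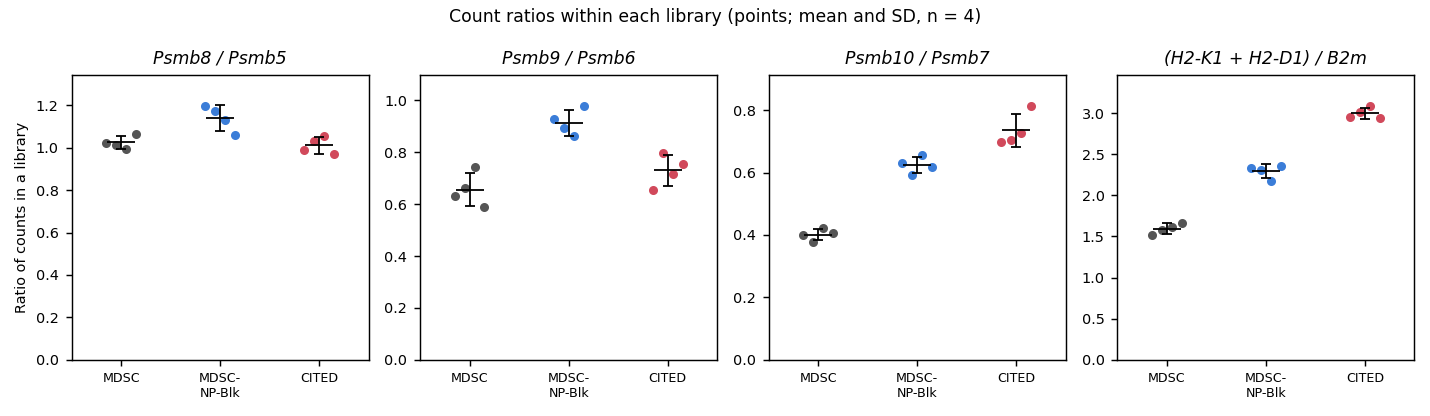
Counts of an immunosubunit per count of its constitutive counterpart, and of both heavy chains per count of B2m, in each library (points) with the mean and SD of 4 libraries. The ratios of Psmb10 to Psmb7 and of heavy to light chain step up over the 3 groups without overlap, and the ratio of Psmb9 to Psmb6 stands apart in MDSC-NP-Blk at 0.861 to 0.978.

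Nlrc5 (ENSMUSG00000074151.15, chr8:95160984-95253900, plus strand) encodes the transactivator of class I genes, and its transcript did not follow those of the other 9 genes. The normalized counts were 226, 225, 194, and 243 in MDSC, 149, 142, 183, and 163 in MDSC-NP-Blk, and 213, 234, 264, and 222 in CITED. MDSC-NP-Blk lay below both other groups without overlap, and CITED and MDSC overlapped. Nlrc5 fell by 0.48 on the log2 scale in MDSC-NP-Blk against MDSC (SE 0.125, adjusted p = 0.00204) and rose by 0.55 in CITED against MDSC-NP-Blk (SE 0.126, adjusted p = 0.00109). In CITED against MDSC the log2 difference was 0.07 with a 95% interval of -0.18 to 0.32 (adjusted p = 0.673, edgeR).

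Nlrc5 has the longest transcript of the 10, at 7578 bases, and 2 of its values depended on the handling of length. After a loess correction for transcript length in each library, the log2 fold change in MDSC-NP-Blk against MDSC was -0.28 with an adjusted p of 0.072, and that in CITED against MDSC was 0.37 with an adjusted p of 0.0103 (edgeR). With library totals alone the latter was -0.20 (adjusted p = 0.187). The higher level in CITED than in MDSC-NP-Blk was 0.65 after the length correction and 0.54 with library totals.

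Over the 12 libraries, log2 CPM of the 9 genes other than Nlrc5 had Pearson correlations of 0.879 to 0.996 over their 36 pairs, with a median of 0.962. The libraries of a group share its mean, and with the mean of each group removed the 36 values were 0.005 to 0.847, with a median of 0.51. Nlrc5 had correlations of -0.334 to -0.021 with the other 9. Among 10556 genes with a mean normalized count above 50, the pattern of H2-K1 was most like those of Tap1, Snx20, Arrb2, Cdk9, and Cdkn1a (r of 0.995 to 0.996), that of Psmb8 most like those of Haus8, Tk2, Cd63, Tspo, and Gstp1 (0.977 to 0.981), and that of Nlrc5 most like those of Camkk1, Eps8, Adamts10, Letm1, and Rcc1l (0.914 to 0.932), over the same 12 libraries.

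Class Ib and class I-like genes, which serve receptors of NK and unconventional T cells or other functions, were examined first among the related lists, whose counts stand against the shares of all symbols called higher and lower (22.2% and 22.2% in CITED against MDSC, 19.9% and 18.6% in MDSC-NP-Blk against MDSC, 10.5% and 11.4% in CITED against MDSC-NP-Blk). Of 16 tested, 9 rose and 1 fell in CITED against MDSC, 6 rose and none fell in MDSC-NP-Blk against MDSC, and 5 rose and 2 fell in CITED against MDSC-NP-Blk. H2-T23, which encodes Qa-1, the ligand of the NK receptor CD94/NKG2A, was at 2534 to 2809 in the MDSC libraries, 4288 to 4953 in those of MDSC-NP-Blk, and 6341 to 6909 in those of CITED, with log2 fold changes of 1.30 (adjusted p = 2.1e-20), 0.81 (adjusted p = 1.25e-14), and 0.49 (adjusted p = 4e-09). H2-Q4 rose by 1.06 in CITED, and the rise was 0.71 in MDSC-NP-Blk. H2-Q6 and H2-Q7 fell by 0.37 and by 0.30 in CITED against MDSC-NP-Blk, and Hfe, an iron regulator of class I shape, fell by 0.58 in CITED against MDSC. Reads of these paralogs could be split among them.

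Several chaperones of peptide loading went the other way. Against MDSC, 4 of 8 loading and trimming genes fell in CITED, 5 fell in MDSC-NP-Blk, and none rose, while the 8 log2 fold changes of CITED against MDSC-NP-Blk lay between -0.13 and 0.06. Calr encodes calreticulin, which holds the heavy chain in the loading complex, and it was at 19087 to 19982 in the MDSC libraries, 9300 to 11607 in those of MDSC-NP-Blk, and 10174 to 10562 in those of CITED. It fell by 0.92 in CITED (adjusted p = 7.81e-17) and by 0.90 in MDSC-NP-Blk (adjusted p = 4.19e-16) on the log2 scale. Hspa5, the luminal chaperone BiP, fell by 0.78 and by 0.84.

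Changes in the rest of the proteasome were mixed. Of 11 other subunits of the 20S core 6 were higher in CITED than in MDSC, 3 were higher in MDSC-NP-Blk, and none fell, with Psmb1 at log2 fold changes of 0.52 and 0.53. Of 18 subunits of the 19S particle, which feeds proteins into the core, 5 rose and 3 fell in CITED, a share near that of all symbols, and 3 rose and 8 fell in MDSC-NP-Blk, against MDSC. Psmd4, a ubiquitin receptor, rose by 1.04 and 0.77, and Psmd14, a deubiquitinase, fell by 0.63 and by 0.61. In CITED against MDSC-NP-Blk 10 of the 18 rose and none fell, with Psmc5 at 0.39 and Adrm1 at 0.37.

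Among the genes of proteasome activators, Psme1 and Psme2 rose as well, whereas Psme3 and Psme4 fell in CITED against MDSC. Psme1 and Psme2, which form the interferon-inducible PA28 cap, were at 2121 to 2205 and 2068 to 2451 in MDSC and at 3423 to 3626 and 3287 to 3653 in CITED. They rose by 0.71 (adjusted p = 2.02e-13) and 0.63 (adjusted p = 1.87e-11) in CITED and by 0.51 and 0.34 in MDSC-NP-Blk against MDSC, whereas Psme3, the nuclear activator, fell by 0.19 and by 0.31. Of the 10 genes of activators and assembly factors, 5 rose and 3 fell in CITED against MDSC, 5 rose and 2 fell in MDSC-NP-Blk against MDSC, and 3 rose and 1 fell in CITED against MDSC-NP-Blk.

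Factors that can act at class I promoters were examined as a list of 21. In CITED against MDSC 12 rose and 3 fell, in MDSC-NP-Blk against MDSC 13 rose and 3 fell, and in CITED against MDSC-NP-Blk 4 rose and 2 fell. The NF-κB subunits Rela and Relb rose by 1.10 and 1.23 in CITED and by 0.93 and 1.12 in MDSC-NP-Blk against MDSC. Irf7 and Irf9, which carry interferon signals, rose by 1.38 and 1.02 in CITED against MDSC and by 0.63 (adjusted p = 2.91e-07) and 0.62 (adjusted p = 2.06e-08) in CITED against MDSC-NP-Blk. Ciita, the class II counterpart of Nlrc5, was at 328 to 388 in the MDSC libraries, 164 to 251 in those of MDSC-NP-Blk, and 158 to 208 in those of CITED, and fell by 1.05 (adjusted p = 1.13e-08) and by 0.83 (adjusted p = 9.72e-07) against MDSC. Creb1 fell in all 3 comparisons, by 0.49, by 0.23, and by 0.26.

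Many genes of the type I interferon response rose in both comparisons of CITED. Of 20 such genes, 15 rose and 2 fell in CITED against MDSC, 7 rose and 4 fell in MDSC-NP-Blk against MDSC, and 15 rose and 1 fell in CITED against MDSC-NP-Blk. Past both thresholds, 11, 2, and 10 of the 20 were higher and 2, 1, and 1 were lower. Of the 10 class I genes, 3, 1, and 0 were higher past both and none was lower. Among all symbols tested, 3.28%, 1.88%, and 0.651% were higher past both thresholds, and 6.7%, 2.86%, and 2% were lower. Oasl2 was at 289 to 443 in the MDSC libraries, 782 to 886 in those of MDSC-NP-Blk, and 1879 to 2133 in those of CITED, and Rtp4 rose by 2.44 in CITED against MDSC-NP-Blk. Oas1a fell by 0.44 in MDSC-NP-Blk against MDSC and rose by 1.72 in CITED against MDSC-NP-Blk, and Ifit2 fell in all 3 comparisons, by 1.82, by 0.82, and by 1.00.

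A list of 14 IFN-γ response genes was examined in the same way. In CITED against MDSC 9 rose and none fell, in MDSC-NP-Blk against MDSC 6 rose and none fell, and in CITED against MDSC-NP-Blk 4 rose and 1, Gbp5, fell. Socs1, a feedback inhibitor of JAK kinases, rose by 1.38 and 1.09 against MDSC, and Cd274, which encodes PD-L1, by 0.85 and 0.51. Of 7 interferon receptor and kinase genes tested, 5 were higher in CITED than in MDSC and 6 were higher in MDSC-NP-Blk, led by Ifngr2 (0.94 and 0.66) and Ifnar2 (0.88 and 0.81), and none fell. The ligand genes Ifnb1 and Ifng held 0 counts in all 12 libraries and were not tested.

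A list of receptor genes of myeloid cells was also measured, not all of which encode receptors of class I molecules. Of 5 tested, 4 rose in CITED against MDSC, 2 in MDSC-NP-Blk against MDSC, and 4 in CITED against MDSC-NP-Blk, where Clec4a2 fell. Pirb, whose product binds class I molecules and inhibits the cell, rose by 0.95 in CITED (adjusted p = 1.29e-16) and by 0.56 in MDSC-NP-Blk (adjusted p = 1.87e-10) against MDSC. Lilrb4a rose by 0.71 in CITED against MDSC and by 0.75 in CITED against MDSC-NP-Blk, while its log2 fold change in MDSC-NP-Blk against MDSC was -0.05 (adjusted p = 0.646, edgeR).

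**Figure D5:**
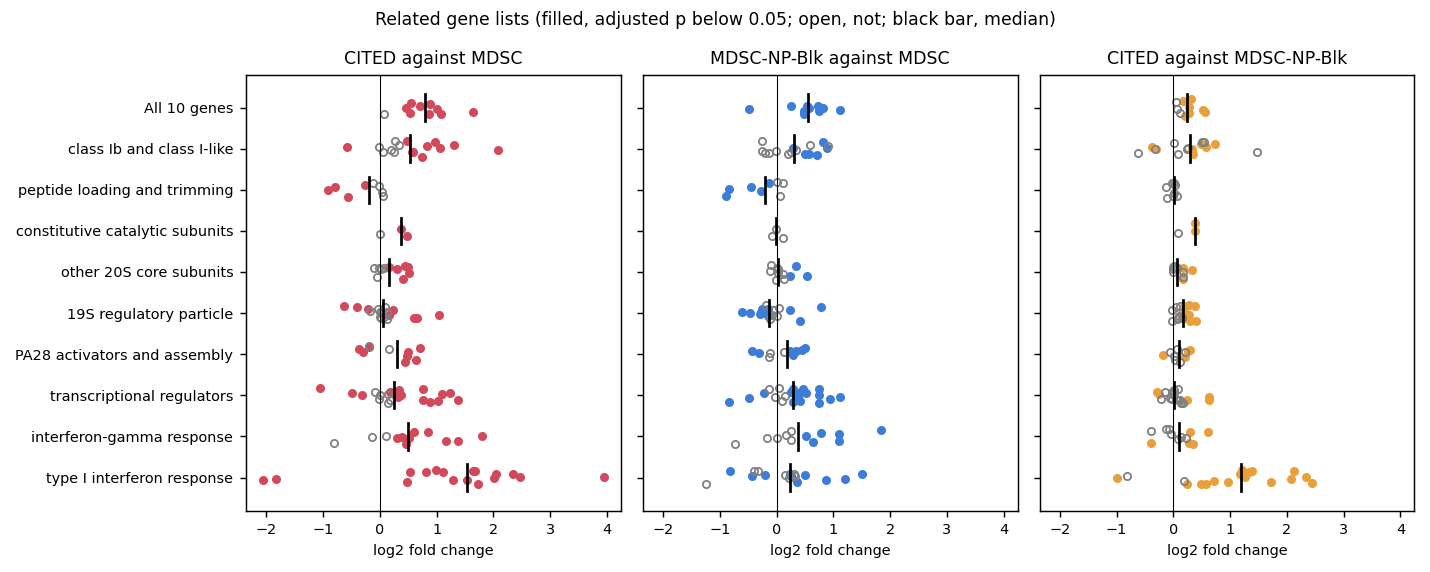
Log2 fold changes of the 10 genes and of 9 related lists in the 3 comparisons, for genes with a mean normalized count of at least 3 in both groups, with filled points at an adjusted p below 0.05 and a black bar at the median of the points. The median of the type I interferon list lies right of 1 in both comparisons of CITED, and the median of the peptide loading genes lies left of 0 in both comparisons with MDSC.

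Markers of other cell types moved between the groups as well, and their part in the results was not tested. All 7 B cell markers were detected. Their summed level was 32.5 to 42.1 CPM in the MDSC libraries and 29.8 to 36.5 CPM in those of MDSC-NP-Blk. In those of CITED it was 13.99 to 15.3 CPM. All 7 were lower in CITED than in MDSC at an adjusted p below 0.05 (edgeR), where 22.2% of all symbols were called lower. The 8 dendritic cell markers summed to 50.7 to 62.0, 63.8 to 73.7, and 56.5 to 62.7 CPM in the same order, with 1 of them at 0 in CITED. The 7 macrophage markers summed to 577 to 606, 467 to 539, and 681 to 753 CPM, a sum carried mostly by Cd68 and Adgre1, with Cd68 at mean normalized counts of 6112, 7265, and 12711. The other 5 (C1qa, C1qb, C1qc, Mertk, and Mrc1) fell in both comparisons with MDSC, with C1qa at 560, 177, and 33.9. Of all symbols, 22.2% were called lower in CITED and 18.6% in MDSC-NP-Blk, each against MDSC. Mast cell and basophil markers summed to 461 to 499, 523 to 578, and 294 to 313 CPM. The 5 megakaryocyte markers summed to 189 to 211, 284 to 303, and 308 to 337 CPM. All 5 rose in MDSC-NP-Blk against MDSC, where 19.9% of all symbols were called higher. In CITED against MDSC-NP-Blk 2 rose and 2 fell, where 10.5% of all symbols were called higher and 11.4% lower. Stromal markers summed to at most 20.8 CPM and erythroid markers at most to 4.97 CPM in any library.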

How the data were processed

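Poly(A)-enriched RNA of 12 libraries was sequenced in paired ends. The authors quantified the reads with Salmon 1.4.0, with decoys, against GENCODE transcripts of GRCm39, summed them per gene with tximport in R 4.3.2, and deposited whole-number counts per gene symbol, which are neither normalized nor filtered. An entry without a symbol, which held 0 counts, was left out. Groups and replicate numbers came from the sample titles.

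The 17676 symbols with at least 2 counts in all were fitted in R 4.3.3 with edgeR 4.0.16 (TMM factors, glmQLFit with robust off, glmQLFTest, group as the only term, all 12 libraries), and Benjamini-Hochberg adjustment covered all of these symbols. The study names DESeq2, which was run as an alternative (1.42.0). A normalized count is the count scaled by TMM factor and library size to a library of mean size. Count ratios within libraries were compared by exact permutation tests in scipy 1.17.1. The depth of a library sets a floor of 3 counts, and intervals and floors cover counting or replicate error only.

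Gene positions and lengths of canonical transcripts came from GENCODE vM39 of GRCm39, which need not be the release the authors used, since theirs is not named. Shared sequence is the percent of a gene's 31-base words that occur in transcripts of other genes. Promoter windows came from a RefSeq table.

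All 10 members and the 3 constitutive subunits are named. Of each other list, the genes with the lowest p in each direction among those called, at most 2 per comparison, could be named, and for Nlrc5, H2-K1, and Psmb8 the 5 genes most like them; the text names a part of these. Zbtb22, Gm3375, H2-M3, Ifnb1, Ifng, and the single cell type markers were named after their values were seen. The members and lists were chosen with earlier results of these data known. The steps were tested on simulated data. Alternatives were other normalizations and filters, DESeq2, a replicate block, a length correction (loess, span 0.5), fits of only the 8 libraries compared, summed class I symbols, and fits without 1 library.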

Additional observations from a re-analysis of the deposited data

Results flagged for a closer look

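Of 60 groups of 4 libraries examined, 3 held a library far from the other 3, and chance alone flags about 1 group in 20. The normalized count of Tap1 was 2086.4 in MDSC replicate 1, where the other MDSC libraries lay between 1976.7 and 1991.7. That of the constitutive subunit gene Psmb6 was 2451.7 in CITED replicate 1, against 2072.7 to 2134.8 in the other CITED libraries. The counts of H2-D1 per count of H2-K1 were 2.4593 in CITED replicate 3, against 2.5817 to 2.5958 in the others. In each case the library stayed on the same side of the other groups as its own group.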

How the results depend on the processing

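With settings that kept all libraries, 270 of 276 log2 fold changes kept their direction and their side of the threshold. The 276 include 6 entries of the summed class I symbols, set against H2-K1 and H2-D1, and all 6 kept both. When 1 library was left out, 236 of 240 log2 fold changes of the members did so. With library totals only, Nlrc5 in CITED against MDSC was -0.2005 and Psmb8 in MDSC-NP-Blk against MDSC was -0.0036, and 1 of 10 genes (against 3) and 0 of 10 (against 1) passed both thresholds in these comparisons. Over all genes, that setting called 272 higher and 1891 lower past both thresholds in CITED against MDSC, against 580 and 1185 with TMM, and 146 and 1060 in MDSC-NP-Blk against MDSC, against 333 and 505. The shift follows from leaving out the factors. After the length correction Psmb8 (0.09) and Nlrc5 (-0.28) in MDSC-NP-Blk against MDSC no longer passed, and Nlrc5 in CITED against MDSC (0.37) and Tap2 in CITED against MDSC-NP-Blk (0.14) passed; the cause was not tested. Psmb9 in CITED against MDSC-NP-Blk ranged from -0.0085, without MDSC-NP-Blk replicate 3, to 0.1085 over the fits without 1 library, and the genes past both thresholds in CITED against MDSC numbered 2 to 3.

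Libraries with the same replicate number deviated together little, with mean correlations of 0.0103, -0.0174, and 0.0509 in the 3 comparisons. Libraries with different numbers had means of -0.0035, 0.0061, and -0.0166. The highest value for a shared number was 0.1398, in CITED against MDSC-NP-Blk. There 2 CITED libraries were most like the MDSC-NP-Blk library of their own number, against 1 and 0 such libraries in the other comparisons. The number was not taken to pair the libraries. With the replicate block, 9 of the 10 genes passed in CITED and 10 in MDSC-NP-Blk, each against MDSC, and 7 between the conjugated groups, as without it, and H2-D1 had a log2 fold change of 1.64 in CITED against MDSC. Over all genes the block gave 7828, 6927, and 4182 calls at an adjusted p below 0.05, against 7862, 6815, and 3883. Nlrc5, with 117 to 287 counts in a library, is the member that depth limits most.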
